A study of Mus musculus with 9 samples.

Results

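The 44 genes described here are the collagen genes, taken as every entry of the deposited table whose symbol has the form Col, a number, the letter a and a second number. They are 44 of the 54361 genes kept in the table. Of these, 29 reached a mean normalized count of 5 over all 9 libraries and were tested, 15 did not, and 2 of those 15 (Col24a1 and Col6a5) had no read in any library. Among the 29, Col4a6 and Col28a1 had a mean under 5 in the libraries labelled naive, and Col9a1 and Col9a2 in those of both other groups, so their passing of this minimum depended on the group in which they were high.

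The libraries came from cells that the labels describe as lung eosinophils, sorted from C57BL/6 mice. The library groups labelled Siglec-F high (n = 3) and Siglec-F int (n = 3) came from mice that had received PyMT tumour cells through a tail vein. PyMT is the polyoma middle T oncogene used to raise mammary tumours in mice. Those labelled naive (n = 3) came from mice that had received only the saline in which those cells were injected. Siglec-F is a surface lectin of eosinophils and alveolar macrophages, and the labels separate both sorted fractions by its level, high or int. RNA of 3 to 4 mice was pooled for each library. The p-values therefore measure the spread between such pools. The labels give no driver, transgene or gene deletion for these mice, and the time between injection and sorting is not given in the sources used here.

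Collagens are secreted proteins in which chains wind around each other in a helix, and most of them build the fibres, sheets and filaments of the extracellular matrix. In the lung they are made mainly by fibroblasts, with basement membrane collagens also made by epithelial, endothelial and smooth muscle cells. Eosinophils are not known as a main source of fibrillar collagen. The chains are hydroxylated and folded in the endoplasmic reticulum, trimmed by proteases after secretion, joined by lysyl oxidases, bound by integrins and discoidin domain receptors, and cut by metalloproteinases and cathepsins.

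Depth in reads ran from 4941900 to 7171066 for Siglec-F high, from 7517513 to 12495635 for Siglec-F int, and from 2205948 to 5529406 for naive. The summed normalized count of 9 eosinophil markers was 515 to 1141 in the Siglec-F high libraries, 189.5 to 419 in the Siglec-F int libraries and 268 to 742 in the naive libraries. Of the 6 tested, 0 passed in any comparison. Of all genes tested, 31.3% passed for Siglec-F high and 22.3% for Siglec-F int against naive, and 0% for Siglec-F high against int. Ear2, an eosinophil ribonuclease gene, had the highest mean of the 9, at 283 to 568 normalized counts in the Siglec-F high libraries, 117 to 269 in the Siglec-F int libraries and 144 to 469 in the naive libraries. Siglecf had 3.58 to 17.6 in the Siglec-F high libraries, 6.98 to 20.2 in the Siglec-F int libraries and 4.18 to 31.3 in the naive ones. Ccr3, the eotaxin receptor gene, was at 0 in all 3 naive libraries and reached 24.1 in Siglec-F high library 1. The granule protein gene Prg2 ran from 0.60 to 380 normalized counts in the Siglec-F high libraries, from 3.76 to 106 in the Siglec-F int libraries and from 0 to 15.0 in the naive libraries, with the highest value in library 3 of each group. The summed normalized count of 10 fibroblast markers was 15300 to 22527 in the Siglec-F high libraries, 8363 to 15046 in the Siglec-F int libraries and 1802 to 1969 in the naive libraries. Of the 10, 6 passed the test as higher in each comparison with naive, beside 14.7% (Siglec-F high) and 12% (Siglec-F int) of all genes tested. Of those 10, Fn1 and Dcn had the highest means, and Fn1 alone reached 12435 in Siglec-F high library 1. Thy1 went the other way, at 6.58 to 175 in the Siglec-F high libraries, 56.4 to 99.3 in the Siglec-F int libraries and 221 to 308.5 in the naive libraries. Mfap5 and Tcf21 lay below the naive range in all Siglec-F int libraries and overlapped it in Siglec-F high. In every library the fibroblast marker sum exceeded the eosinophil marker sum, and so did the sums of 6 leukocyte and 9 epithelial markers. Leukocyte sums were 9480 to 14071 in the Siglec-F high, 10298 to 36417 in the Siglec-F int and 5306 to 8016 in the naive libraries. Epithelial sums were 5330 to 6314, 2894 to 3816 and 4177 to 7898 in that order. In the naive libraries both exceeded the fibroblast sum. Sums over unlike gene lists do not rank cell content. Fibroblast and epithelial marker RNA at such levels goes against the label, although the labels state a high purity of the sort. The groups are called by their labels only. The summed count of 10 pigment cell and neural crest markers ran opposite to the fibroblast sum. It was 220.1 to 995 in the Siglec-F high libraries, 368 to 672 in the Siglec-F int libraries and 58280 to 67273 in the naive libraries. The part of the cell makeup in the collagen results was not tested. In pooled RNA, fewer cells of a type and less RNA per cell cannot be told apart.

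Collagen genes took a larger share of the reads in both groups from mice given PyMT cells. The 44 genes together held 0.796%, 0.910% and 0.900% of the reads in Siglec-F high libraries 1 to 3, 0.922%, 0.361% and 0.861% in Siglec-F int libraries 1 to 3, and 0.206%, 0.176% and 0.257% in naive libraries 1 to 3. The 95% Wilson intervals, which cover counting error only, ran from 0.357% to 0.364% for the lowest of the first 6 libraries and from 0.253% to 0.261% for the highest naive library. All 6 libraries of mice given PyMT cells lay above all 3 naive libraries, and Siglec-F int library 2 lay well below the other Siglec-F int libraries. That library was the lowest of its group for 22 of the 25 collagen genes with a mean of at least 20. Its fibroblast marker sum was 8363, against 15046 and 13490 in Siglec-F int libraries 1 and 3, and its sum of 6 leukocyte markers was 36417, against 10298 and 12327. The part of these differences in its collagen values was not tested.

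**Figure D1:**
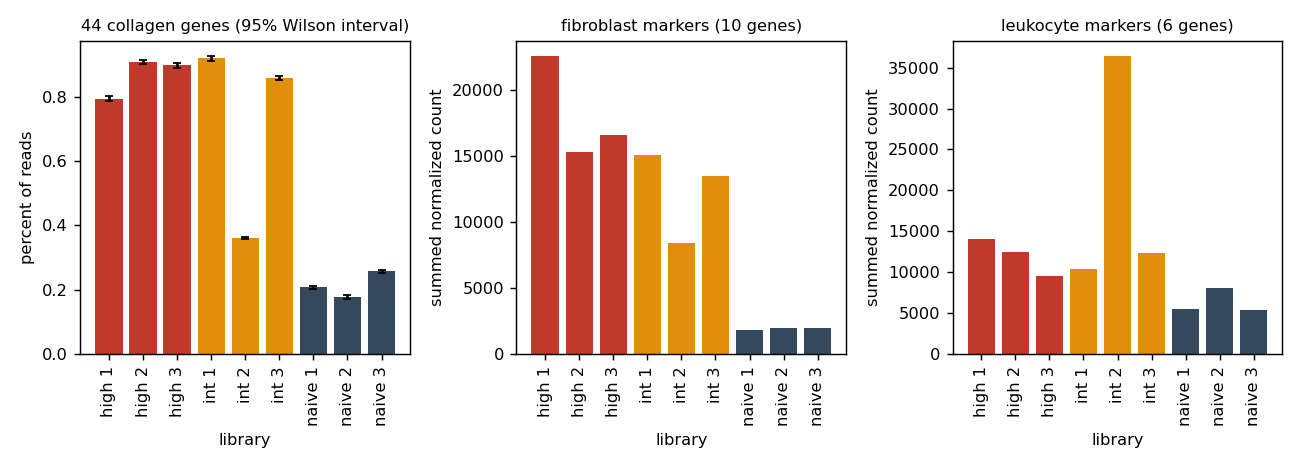
Percent of reads in the 44 collagen genes (left, bars with 95% Wilson intervals) and summed normalized counts of 10 fibroblast markers (middle) and 6 leukocyte markers (right) in each of the 9 libraries, Siglec-F high in red, Siglec-F int in orange and naive in dark blue. Collagen reads ran from 0.361% to 0.922% in the 6 libraries of mice given PyMT cells and from 0.176% to 0.257% in the naive libraries, and Siglec-F int library 2 joined the lowest share of its group to the highest leukocyte sum of all 9.

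Of the 29 tested collagen genes, 14 were higher and 0 were lower in the Siglec-F high libraries than in the naive libraries at an adjusted p under 0.05 (limma). Over all 13642 genes tested, 31.3% passed in the same comparison, with 14.7% higher and 16.6% lower. In the Siglec-F int libraries 13 collagen genes were higher than in the naive libraries and 0 were lower, beside 22.3% of all genes tested that passed, 12% higher and 10.3% lower. A log2 fold change here is on the log2(normalized count + 1) scale, which understates the change of low genes. Its median over the 29 was 1.70 for Siglec-F high and 1.67 for Siglec-F int against naive, beside -0.11 and -0.02 over all genes tested, and both medians of the 29 were the same with genes that had no read in a group set at their bound. Groups did not overlap, with all 3 Siglec-F high libraries above all 3 naive ones, for 17 of the 29 (20.2% of all genes tested), and for 16 with Siglec-F int (23.3%). Both comparisons use the same naive libraries, so they are not independent.

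Passing the test in both comparisons with naive were 11 genes, namely Col3a1, Col4a5, Col4a6, Col5a1, Col6a1, Col6a2, Col6a3, Col8a1, Col10a1, Col12a1 and Col18a1. Col1a1, Col5a2 and Col14a1 passed for Siglec-F high and Col7a1 and Col28a1 for Siglec-F int. The other 13 tested genes passed in neither. Col4a6 and Col28a1 reached the minimum mean only through groups in which they were high, so their part in these counts is given as a description. The Siglec-F int count fell to 8 without Siglec-F int library 1 and to 7 without Siglec-F int library 3. With Siglec-F int library 2 and Siglec-F high library 1 both left out, 17 genes passed in each comparison.

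**Figure D2:**
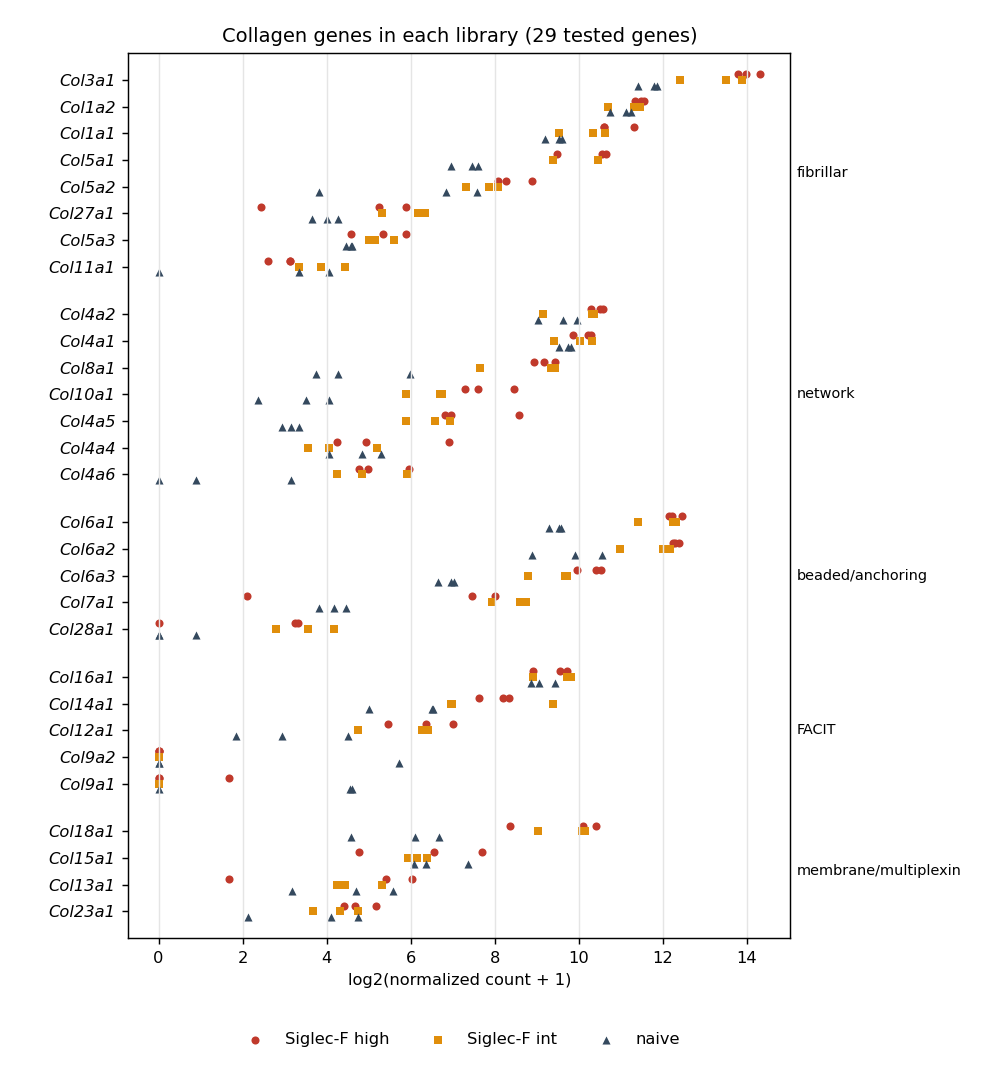
Normalized counts on the log2(value + 1) scale (horizontal axis) of the 29 tested collagen genes (rows, grouped by structural class) in each library, with Siglec-F high as red circles, Siglec-F int as orange squares and naive as dark blue triangles. Red and orange points lie right of the triangles for the genes of collagen VI and for Col3a1, Col5a1, Col8a1, Col10a1, Col4a5, Col4a6 and Col18a1, and the 3 groups mix for Col16a1, Col15a1, Col13a1 and Col23a1.

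The fibrillar collagens form the banded fibres that give tissue its tensile strength. Of the 11 listed, 8 were tested, 4 were higher in Siglec-F high libraries, 2 in Siglec-F int libraries and 0 were lower in either. Of all genes tested, 14.7% were higher for Siglec-F high and 12% for Siglec-F int. Col3a1, the single chain of type III collagen of soft and distensible tissue, had the highest level per length of all collagen genes in every group. It had 20431, 14107 and 16096 normalized counts in the Siglec-F high libraries, 15223, 5427 and 11627 in the Siglec-F int libraries, and 3528, 2704 and 3719 in the naive libraries. Every library of mice given PyMT cells was above every naive one. Against naive, the log2 fold change was 2.34 ± 0.38 (SE) for Siglec-F high (adjusted p = 0.00203) and 1.59 ± 0.38 for Siglec-F int (adjusted p = 0.0147). The second of these calls was lost without Siglec-F int library 1, Siglec-F int library 3 or naive library 2, with an adjusted p of up to 0.0673.

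Type I collagen, the main collagen of fibrous tissue, is built from the chains of Col1a1 and Col1a2, and these gave different results. Col1a1 had 2554, 1555 and 1541 normalized counts in the Siglec-F high libraries, 1567, 733 and 1294 in the Siglec-F int libraries, and 776, 584 and 743 in the naive libraries. All 3 Siglec-F high libraries were above all naive libraries, while Siglec-F int library 2 lay within the naive range. Its log2 fold change was 1.39 ± 0.34 (adjusted p = 0.0132) for Siglec-F high and 0.71 ± 0.34 (adjusted p = 0.156) for Siglec-F int. Col1a2 had 2836, 2570.1 and 2976 normalized counts in the Siglec-F high libraries, 2546, 1644 and 2821 in the Siglec-F int libraries, and 2402, 1712 and 2229 in the naive libraries. The Siglec-F high range began just above the naive range and the Siglec-F int range covered it, with log2 fold changes of 0.41 ± 0.28 (adjusted p = 0.270) and 0.12 ± 0.28 (adjusted p = 0.780). Among collagen genes, Col1a2 had the second highest level per length in the naive libraries after Col3a1, at 395 normalized counts per kilobase of transcript on average, against 522 in Siglec-F high and 437 in Siglec-F int libraries.

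Levels of different genes are compared per kilobase of the longest protein-coding transcript of each gene. Whether reads came from whole transcripts or from one end is not stated in the labels, so such levels carry that limit, and ratios between groups for 1 pair of genes do not depend on the lengths. The ratio of Col3a1 to Col1a2 per length was 6.92, 5.28 and 5.20 in the Siglec-F high libraries, 5.75, 3.17 and 3.96 in the Siglec-F int libraries, and 1.41, 1.52 and 1.60 in the naive libraries. The ratio of Col1a1 to Col1a2 was 0.812, 0.546 and 0.467 in the Siglec-F high libraries, 0.555, 0.402 and 0.414 in the Siglec-F int libraries, and 0.292, 0.307 and 0.301 in the naive libraries. Neither ratio overlapped between naive and the other groups. For each, the exact two-sided permutation test gave p = 0.1 against naive, which is the smallest p that 3 against 3 libraries allow, with 9 pairs of genes compared, so that no p adjusted over the pairs can be lower. In Siglec-F int library 2, where nearly all collagen genes were low, both ratios were still above the naive range.

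The promoter windows of Col3a1 and Col1a2 are shown because these 2 fibrillar genes had the highest naive levels and gave different results. Each is the 250 bases before the RefSeq start site in GRCm38.p6, printed 5′ to 3′ on the gene's strand, at chr1:45311288-45311537 (plus strand) for Col3a1 and at chr6:4505368-4505617 (plus strand) for Col1a2. Capitals mark matches, on either strand, to the letters TATAAA known from TATA boxes, CCAAT known from the boxes of that name, GGGCGG known from GC boxes, and TGANTCA known from AP-1 sites.
Col3a1: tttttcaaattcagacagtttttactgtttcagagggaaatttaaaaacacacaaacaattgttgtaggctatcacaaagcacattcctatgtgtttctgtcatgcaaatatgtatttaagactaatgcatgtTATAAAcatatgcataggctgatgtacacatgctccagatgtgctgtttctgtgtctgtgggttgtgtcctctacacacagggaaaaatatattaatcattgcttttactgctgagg
Col1a2: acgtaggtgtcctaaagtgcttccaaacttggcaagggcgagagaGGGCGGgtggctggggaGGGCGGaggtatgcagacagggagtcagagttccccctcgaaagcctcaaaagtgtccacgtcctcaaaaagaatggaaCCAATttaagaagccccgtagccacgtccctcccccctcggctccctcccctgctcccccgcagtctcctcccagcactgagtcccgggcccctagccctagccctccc
The Col3a1 window held TATAAA and was 35.2% G and C, and the Col1a2 window held CCAAT and GGGCGG and was 62.0% G and C. Of 32851 windows of this length in the RefSeq table, 12.4% held the first motif (TATAAA), 33.8% the second (CCAAT), 32.7% the third (GGGCGG) and 6.75% the last (TGANTCA) on either strand. Of the 38 windows of the 35 collagen genes that matched the table, the same shares were 13.2%, 34.2%, 57.9% and 2.63% in this order of motifs. These matches describe the letters and do not mark sites in use. Col1a1, Col2a1, Col4a3, Col5a2, Col9a3, Col12a1, Col14a1, Col22a1 and Col26a1 had no matched window.

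Type V collagen is a minor fibrillar collagen that seeds type I fibres. Its chain gene Col5a1 had 715, 1592 and 1488 normalized counts in the Siglec-F high libraries, 1399, 668 and 1413 in the Siglec-F int libraries, and 123, 175 and 193 in the naive libraries. Every library of mice given PyMT cells was above the naive range, with log2 fold changes of 2.89 ± 0.41 (adjusted p = 0.00104) and 2.77 ± 0.41 (adjusted p = 0.00164). Its partner Col5a2, which lies tail to tail with Col3a1 on chromosome 1 with 24614 bases between them, had 474, 268 and 309.6 normalized counts in the Siglec-F high libraries, 271, 158 and 229.9 in the Siglec-F int libraries, and 114, 13.0 and 191 in the naive libraries. The naive values spread widely, and the Siglec-F int range overlapped them. Its log2 fold change was 2.34 ± 0.78 for Siglec-F high (adjusted p = 0.0437, a call lost in 11 of 20 other settings, with an adjusted p of up to 0.129) and 1.67 ± 0.78 for Siglec-F int (adjusted p = 0.148).

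The other tested fibrillar genes did not pass the test. Col5a3, the rarest type V chain, had 23.0, 58.5 and 39.2 normalized counts in the Siglec-F high libraries, 47.8, 31.2 and 34.8 in the Siglec-F int libraries, and 22.9, 23.4 and 20.9 in the naive libraries. Col27a1, a fibrillar collagen of cartilage, had 4.39, 37.0 and 58.0 in the Siglec-F high libraries, 71.4, 39.2 and 80.7 in the Siglec-F int libraries, and 11.5, 18.2 and 15.0 in the naive libraries. Siglec-F high library 1 lay below the naive range for Col27a1, and the adjusted p for Siglec-F int against naive was 0.107. Without that library Col27a1 passed in both comparisons with naive. Col11a1, a chain of the minor fibrillar collagen of cartilage, had 5.12 to 7.76 normalized counts in the Siglec-F high libraries, 9.13 to 20.6 in the Siglec-F int libraries and 0 to 15.6 in the naive libraries. Col2a1, the main collagen of cartilage, stayed at 2.98 normalized counts or less in every library, and Col11a2 at 8.77 or less.

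Collagen VI forms beaded filaments around cells and next to basement membranes, and its 3 classical chains were all higher in both groups from mice given PyMT cells. Col6a1 had 4564, 5602 and 4781 normalized counts in the Siglec-F high libraries, 4873, 2727 and 5109.8 in the Siglec-F int libraries, and 624, 732 and 760.1 in the naive libraries. No library of mice given PyMT cells came near the naive range. Against naive the log2 fold change was 2.82 ± 0.29 (adjusted p = 0.000281) for Siglec-F high and 2.54 ± 0.29 (adjusted p = 0.000631) for Siglec-F int. Col6a2, whose gene lies 85161 bases from Col6a1 on the same strand of chromosome 10, had 4816, 5314 and 5004 normalized counts in the Siglec-F high libraries, 4071, 2035 and 4583 in the Siglec-F int libraries, and 475, 1506 and 966 in the naive libraries. Its log2 fold change was 2.51 ± 0.43 (adjusted p = 0.00265) for Siglec-F high and 1.93 ± 0.43 (adjusted p = 0.0108) for Siglec-F int. Without Siglec-F int library 3 the adjusted p of the second was 0.0535.

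Col6a3, the long chain of collagen VI whose tail is cleaved off as endotrophin, had the smallest adjusted p of the collagen genes. It had 1485, 1359.6 and 1000.5 normalized counts in the Siglec-F high libraries, 817, 445 and 846 in the Siglec-F int libraries, and 131, 99.0 and 123 in the naive libraries. The 3 groups did not overlap, in the order Siglec-F high, Siglec-F int, naive. The log2 fold change against naive was 3.43 ± 0.32 (adjusted p = 0.000219) for Siglec-F high and 2.52 ± 0.32 (adjusted p = 0.000935) for Siglec-F int. Per length, Col6a3 stood far below its partners, at 0.0849 to 0.132 times Col6a1 in the Siglec-F high libraries, 0.0662 to 0.0680 times in the Siglec-F int libraries and 0.0549 to 0.0850 times in the naive libraries. Col6a1 and Col6a2 were close to each other per length, with ratios of 1.08 to 1.20 in the Siglec-F high libraries, 1.27 to 1.52 in the Siglec-F int libraries and 0.552 to 1.49 in the naive libraries. The chains Col6a4, Col6a5 and Col6a6 were not tested, and none exceeded 6.44 normalized counts in any library.

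Col7a1, the anchoring fibril collagen that ties skin epithelium to its dermis, split the Siglec-F high libraries. It had 3.29, 257 and 174 normalized counts in the Siglec-F high libraries, 431, 244 and 386 in the Siglec-F int libraries, and 17.2, 13.0 and 20.9 in the naive libraries. Siglec-F high library 1 lay below the naive range and the other 5 libraries of mice given PyMT cells far above it. The log2 fold change was 4.28 ± 1.21 (adjusted p = 0.0293) for Siglec-F int, a call lost with no filter on low values and when any 1 Siglec-F int or naive library was left out, and 1.70 ± 1.21 (adjusted p = 0.293) for Siglec-F high. The Siglec-F high comparison passed with edgeR and with DESeq2 on all libraries, and in limma without Siglec-F high library 1. The difference between the Siglec-F high and int libraries did not pass (log2 difference -2.57 ± 1.21, adjusted p = 0.797).

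Col28a1, a collagen of peripheral nerve, held 25 reads in the Siglec-F high libraries together, 88 in the Siglec-F int libraries and 1 in the naive libraries. As a share of all reads this was 17.7 times the naive level in Siglec-F high (95% counting interval 2.89 to 725) and 34.0 times in Siglec-F int (5.94 to 1357). Among libraries it was at 0 in Siglec-F high library 1 and in naive libraries 1 and 2. The limma test gave an adjusted p of 0.176 for Siglec-F high and 0.0478 for Siglec-F int. Of the 20 other settings, that with a minimum mean of 20 left the gene out. The second call was lost in 12 of the others (adjusted p up to 0.175). Among the 12 were both other pseudocounts, the replicate block, edgeR and the removal of any 1 Siglec-F int or naive library. The Siglec-F high comparison passed without Siglec-F high library 1. These p-values are given as a description, since Col28a1 reached the minimum mean only through groups in which it was high. Col26a1 was not tested and reached at most 3.29 normalized counts.

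The network collagens form sheets, such as the type IV collagen of basement membranes. Of the 9 listed, 7 were tested. Higher in each comparison with naive (14.7% and 12% of all genes tested) were 4: Col4a5, Col4a6, Col8a1 and Col10a1. The most abundant type IV chains, Col4a1 and Col4a2, were not among them. Col4a1 had 936, 1189 and 1246 normalized counts in the Siglec-F high libraries, 1267, 680.4 and 1044 in the Siglec-F int libraries, and 862, 735 and 905 in the naive libraries. Col4a2 had 1261, 1528 and 1445 in the Siglec-F high libraries, 1307, 566 and 1268 in the Siglec-F int libraries, and 519.5, 782 and 986 in the naive libraries. Both had Siglec-F high ranges just above the naive ranges, with log2 fold changes of 0.42 ± 0.29 (adjusted p = 0.276) and 0.93 ± 0.37 (adjusted p = 0.0757). The second passed with TMM scaling, with DESeq2, and without Siglec-F int library 2. In Siglec-F int libraries the log2 fold changes were 0.22 ± 0.29 (adjusted p = 0.622) for Col4a1 and 0.41 ± 0.37 (adjusted p = 0.451) for Col4a2.

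The minor type IV chains Col4a5 and Col4a6, found together in the basement membranes of smooth muscle and some epithelia, started far lower. Col4a5 had 382, 124 and 112 normalized counts in the Siglec-F high libraries, 93.9, 58.6 and 122 in the Siglec-F int libraries, and 9.17, 7.82 and 6.68 in the naive libraries. Every library of mice given PyMT cells was above every naive library, and Siglec-F high library 1 stood above the rest. On the log2 scale it changed by 4.31 ± 0.55 (adjusted p = 0.000649) for Siglec-F high and 3.33 ± 0.55 (adjusted p = 0.00274) for Siglec-F int. Col4a6 had 30.7, 26.2 and 61.4 normalized counts in the Siglec-F high libraries, 59.0, 18.1 and 27.5 in the Siglec-F int libraries, and 0, 7.82 and 0.84 in the naive libraries, where it rested on 4 reads in all. Its log2 fold change was 3.90 ± 0.87 (adjusted p = 0.00908) for Siglec-F high and 3.66 ± 0.87 (adjusted p = 0.0142) for Siglec-F int. The second call was lost without Siglec-F int library 1 or 3. Both p-values are given as a description, since Col4a6 reached the minimum mean only through the groups in which it was high.

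Relative to Col4a1 per length, Col4a5 stood at 0.413, 0.106 and 0.0907 in the Siglec-F high libraries, 0.0750, 0.0871 and 0.118 in the Siglec-F int libraries, and 0.0108, 0.0108 and 0.00747 in the naive libraries. These ranges did not overlap between naive and the other groups (exact permutation p = 0.1, the smallest possible, 2-sided). Type IV genes lie in head to head pairs. In GENCODE M21 on GRCm38 the Col4a5 and Col4a6 starts were 1309 bases apart on chromosome X, and both genes passed the test in both comparisons. The Col4a1 and Col4a2 starts were 21 bases apart on chromosome 8, where the annotated genes overlapped at their starts, and neither gene passed. The Col4a3 and Col4a4 starts were 72 bases apart on chromosome 1. Col4a4 had 118, 29.8 and 17.9 normalized counts in the Siglec-F high libraries, 10.7, 15.6 and 35.4 in the Siglec-F int libraries, and 27.5, 15.6 and 38.4 in the naive libraries, so that only Siglec-F high library 1 left the naive range upward. Col4a3, not tested, had 27.4 normalized counts in that same library and at most 2.68 in the others.

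Col8a1 and Col10a1 encode short-chain collagens that form hexagonal lattices, the first known from vessel walls and the second from the cartilage of growing bone. Col8a1 had 687, 489 and 571 normalized counts in the Siglec-F high libraries, 691, 201 and 651 in the Siglec-F int libraries, and 18.4, 62.5 and 12.5 in the naive libraries. Col10a1 had 353, 193 and 156 in the Siglec-F high libraries, 103, 58.6 and 106 in the Siglec-F int libraries, and 10.3, 15.6 and 4.18 in the naive libraries. Both were above the naive range in all 6 libraries of mice given PyMT cells, and for Col10a1 the Siglec-F high and int ranges did not overlap either. The log2 fold changes against naive were the 2 largest of the collagen genes in Siglec-F high, at 4.50 ± 0.61 for Col8a1 (adjusted p = 0.000867) and 4.48 ± 0.55 for Col10a1 (adjusted p = 0.000541). In Siglec-F int they were 4.14 ± 0.61 (adjusted p = 0.00166) and 3.14 ± 0.55 (adjusted p = 0.00351). Col8a2, the partner of Col8a1, was not tested and was at 0 in all 3 naive libraries and at 5.97 normalized counts or less elsewhere.

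The promoter windows of these 4 network genes are shown because they had the largest log2 fold changes of their class, and because Col4a5 and Col4a6 are a head to head pair. They are printed as above, 250 bases before the RefSeq start in GRCm38.p6 on each gene's own strand, with the same 4 motifs in capitals. Col4a5 is at chrX:141475169-141475418 (plus strand), Col4a6 at chrX:141474077-141474326 (minus strand), Col8a1 at chr16:57754738-57754987 (minus strand) and Col10a1 at chr10:34389731-34389980 (plus strand).
Col4a5: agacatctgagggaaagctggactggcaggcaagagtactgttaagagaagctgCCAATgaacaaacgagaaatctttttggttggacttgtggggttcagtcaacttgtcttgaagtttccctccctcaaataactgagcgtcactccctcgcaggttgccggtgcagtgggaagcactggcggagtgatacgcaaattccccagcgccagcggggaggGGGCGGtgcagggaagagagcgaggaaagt
Col4a6: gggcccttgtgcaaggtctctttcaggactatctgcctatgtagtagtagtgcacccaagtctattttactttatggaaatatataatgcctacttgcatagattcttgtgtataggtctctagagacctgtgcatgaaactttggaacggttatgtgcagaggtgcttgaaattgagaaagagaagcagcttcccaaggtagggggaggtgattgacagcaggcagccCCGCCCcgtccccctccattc
Col8a1: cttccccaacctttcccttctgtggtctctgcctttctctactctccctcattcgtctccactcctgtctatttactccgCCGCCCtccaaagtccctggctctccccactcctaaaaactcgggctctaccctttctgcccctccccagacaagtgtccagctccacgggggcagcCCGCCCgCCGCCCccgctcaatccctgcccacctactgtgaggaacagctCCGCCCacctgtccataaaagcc
Col10a1: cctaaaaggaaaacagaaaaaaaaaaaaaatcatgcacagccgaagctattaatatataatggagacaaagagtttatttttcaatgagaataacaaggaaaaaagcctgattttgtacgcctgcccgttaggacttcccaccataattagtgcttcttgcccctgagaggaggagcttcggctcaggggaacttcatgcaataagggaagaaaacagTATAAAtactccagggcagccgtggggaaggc
Col4a5 and Col4a6 each held 1 GGGCGG on either strand and Col4a5 also CCAAT, Col8a1 held 4 GGGCGG, and Col10a1 held TATAAA with its first base 32 bases before the start.

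**Figure D3:**
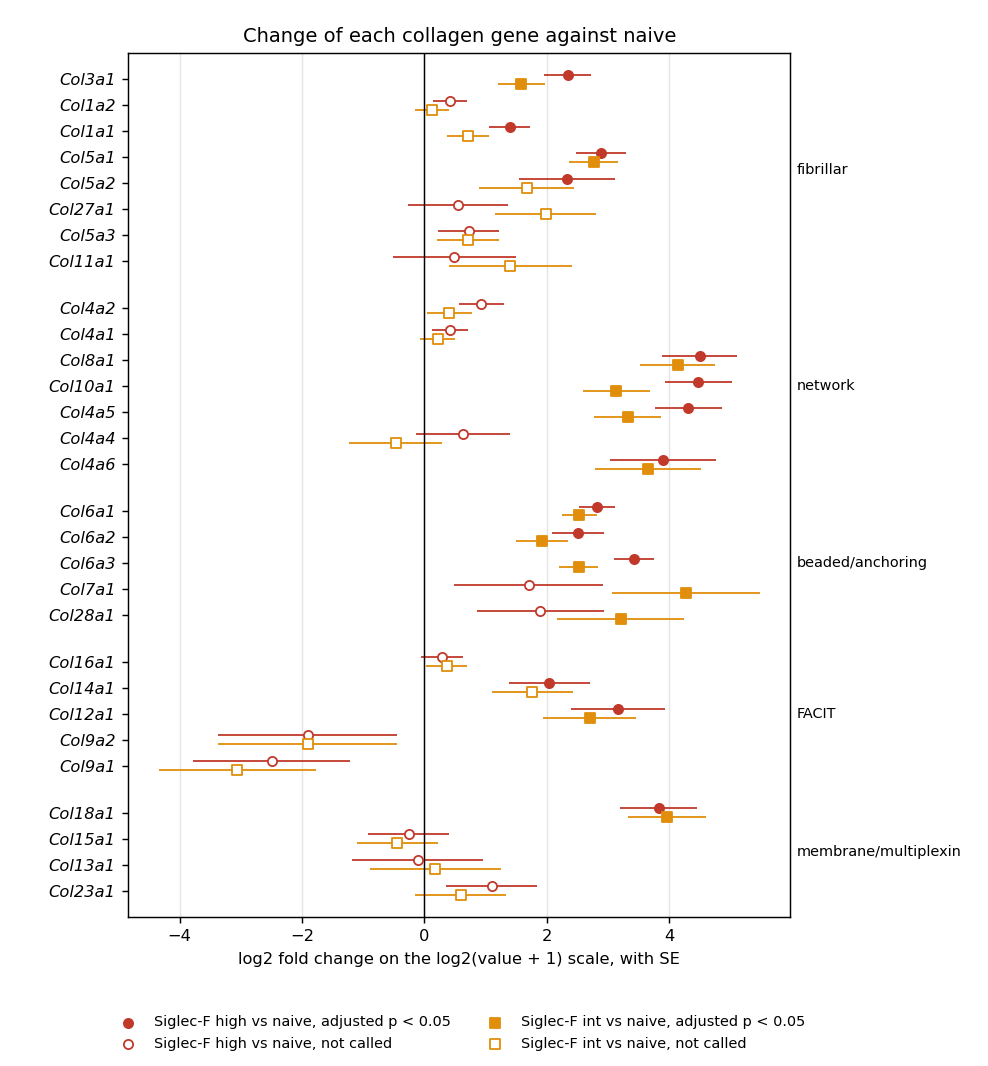
Log2 fold change against naive on the log2(value + 1) scale (horizontal axis, bars are SE) of the 29 tested collagen genes by structural class, with Siglec-F high as red circles and Siglec-F int as orange squares, filled where the adjusted p was under 0.05. Filled points lie between 1.39 and 4.50, and the widest bars belong to Col9a2, Col9a1 and Col7a1.

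FACIT collagens lie on the surface of fibrils and have interruptions in their own helix. Results for these genes were mixed. Of the 9 listed, 5 were tested, 2 were higher in Siglec-F high libraries and 1 in Siglec-F int libraries. Of all genes tested, 14.7% and 12% were higher, so 2 or 1 of 5 do not set this class apart. Col12a1, found on fibrils of dense and stretched tissue, had 42.8, 127 and 81.0 normalized counts in the Siglec-F high libraries, 75.7, 25.7 and 83.8 in the Siglec-F int libraries, and 21.8, 2.61 and 6.68 in the naive libraries. Log2 fold changes were 3.17 ± 0.77 (adjusted p = 0.0126) for Siglec-F high and 2.70 ± 0.77 (adjusted p = 0.0296) for Siglec-F int, and the second was lost with no filter on low values and without Siglec-F int library 1 or 3 or naive library 2 or 3. Col14a1, which binds fibrils through decorin, went against the other genes in Siglec-F int library 2. It had 324, 196 and 290.0 normalized counts in the Siglec-F high libraries, 125, 669.9 and 123 in the Siglec-F int libraries, and 31.0, 91.2 and 89.4 in the naive libraries. All 6 libraries of mice given PyMT cells were above the naive range, with the highest value in Siglec-F int library 2. The log2 fold change was 2.04 ± 0.66 (adjusted p = 0.0382) for Siglec-F high, a call lost in 6 of 20 other settings, and 1.77 ± 0.66 (adjusted p = 0.0782) for Siglec-F int, which passed with equal totals, edgeR and DESeq2 (adjusted p down to 0.00687).

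Col16a1, a FACIT collagen of fibrillin-rich and papillary matrix, was abundant and had overlapping values in all groups. It had 483, 748 and 848 normalized counts in the Siglec-F high libraries, 839.6, 482 and 894 in the Siglec-F int libraries, and 693, 461 and 530.4 in the naive libraries. Its log2 fold changes were 0.28 ± 0.34 (adjusted p = 0.534) for Siglec-F high and 0.36 ± 0.34 (adjusted p = 0.465) for Siglec-F int. The type IX chains Col9a1 and Col9a2, cartilage collagens, had reads almost only in naive libraries. Col9a1 held 2 reads in the Siglec-F high libraries together, 0 in the Siglec-F int libraries and 36 in the naive libraries, 27 of them in naive library 3. In Siglec-F high libraries it stood at 0.0392 times the naive share of reads (95% counting interval 0.00458 to 0.152), and in Siglec-F int libraries at least 31.1-fold lower, taking a floor of 3 reads over the group. Neither comparison passed (adjusted p = 0.154 and 0.112), and both passed as lower without naive library 1, where Col9a1 was at 0. The Siglec-F int comparison also passed with edgeR and with DESeq2. Col9a2 held 20 reads in naive library 2 and 0 in the other 8 libraries. Col9a3, Col19a1, Col20a1 and Col22a1 were not tested, and their highest value was 14.3 normalized counts, of Col9a3 in Siglec-F high library 1.

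Among the membrane collagens and the multiplexins of basement membranes, 6 were listed, 4 tested and 1 higher in each comparison with naive. Of all genes tested, 14.7% and 12% were higher, so 1 of 4 does not set this class apart. The higher gene was Col18a1, whose end fragment is endostatin. It had 327, 1348 and 1093 normalized counts in the Siglec-F high libraries, 1125, 523 and 1086 in the Siglec-F int libraries, and 22.9, 102 and 67.7 in the naive libraries. Every library of mice given PyMT cells was above the naive range. The log2 fold change was 3.83 ± 0.64 (adjusted p = 0.00226) for Siglec-F high and 3.96 ± 0.64 (adjusted p = 0.00242) for Siglec-F int. The related multiplexin Col15a1 had 207, 92.5 and 26.4 normalized counts in the Siglec-F high libraries, 82.7, 60.2 and 70.5 in the Siglec-F int libraries, and 66.5, 80.8 and 165 in the naive libraries. Its ranges overlapped in full (adjusted p = 0.785 and 0.662). The membrane collagens Col13a1 and Col23a1 did not pass, at 2.19 to 64.4 and 20.3 to 35.1 normalized counts in the Siglec-F high libraries, 18.0 to 38.6 and 11.8 to 25.8 in the Siglec-F int libraries, and 8.03 to 46.9 and 3.34 to 26.1 in the naive libraries. Col17a1, the hemidesmosome collagen, and Col25a1 were not tested. Col17a1 was at 0 in the naive libraries and reached 10.5 normalized counts in Siglec-F int library 2.

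Between the Siglec-F high and Siglec-F int libraries, 0 collagen genes passed the adjusted test, as did 0% of all genes tested. At an unadjusted p under 0.05 (limma) there were 2 collagen genes, Col6a3 and Col10a1, beside 4.33% of all genes tested, and 0 collagen genes passed with edgeR and with DESeq2. Col6a3 differed by 0.90 ± 0.32 (log2, Siglec-F high minus Siglec-F int, adjusted p = 0.797) and Col10a1 by 1.34 ± 0.55 (adjusted p = 0.797). Ranges did not overlap, with Siglec-F high above, for Col6a2, Col6a3 and Col10a1 (5.52% of all genes tested), and with Siglec-F high below, for Col11a1 (5.75%). Col3a1 differed by 0.76 ± 0.38 and Col1a1 by 0.68 ± 0.34, both with an adjusted p of 0.797. The median over the 29 was 0.28, beside -0.08 over all genes tested. A p that misses the threshold does not show that the levels were the same.

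**Figure D4:**
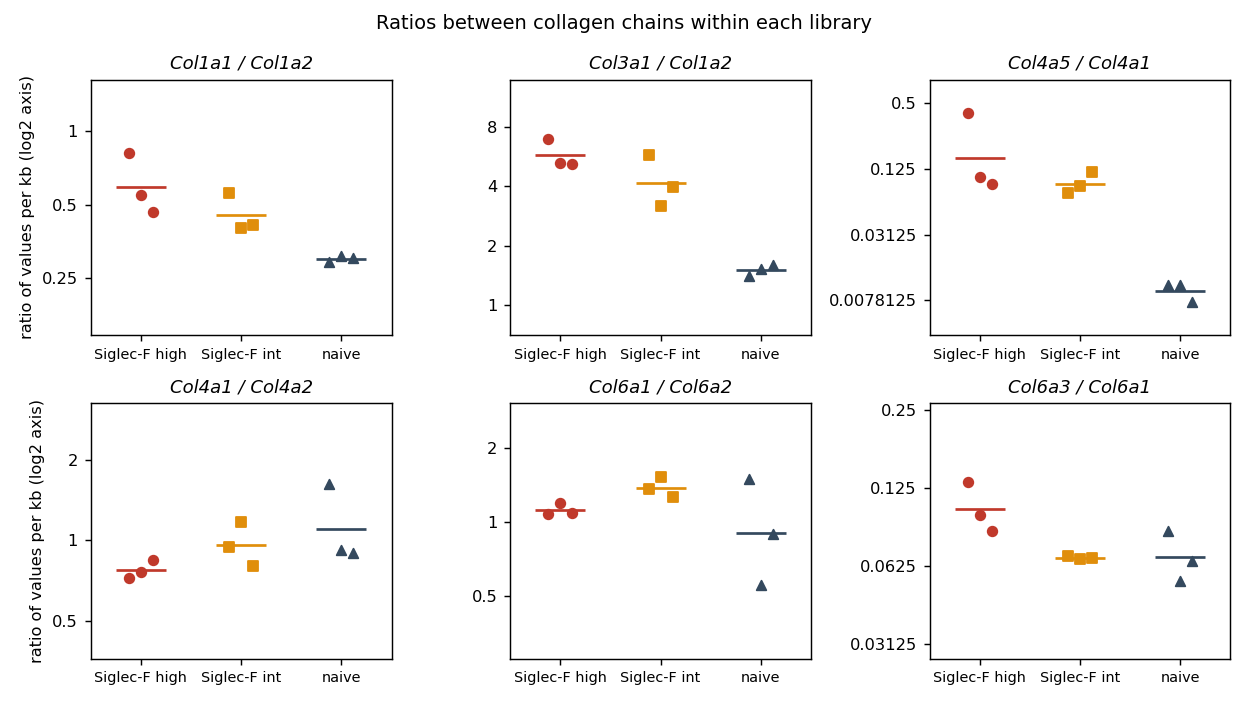
Ratio of the normalized counts per kilobase of 6 pairs of collagen chains in each library (vertical log2 axes, points are libraries, lines are geometric means of 3 libraries), with Siglec-F high left, Siglec-F int in the middle and naive right. The Col3a1 to Col1a2 ratio was 3.17 to 6.92 in the 6 libraries of mice given PyMT cells and 1.41 to 1.60 in the naive libraries, while the Col6a1 to Col6a2 ratio of the 3 groups overlapped.

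Siglec-F high library 1 varied from its group by gene more than by level. Of the 25 collagen genes with a mean of at least 20, it was the lowest of the 3 Siglec-F high libraries for 12 and the highest for 11. The median G and C content of the longest transcript was 59.2% over the 12 and 51.5% over the 11. Across the 25 genes, Spearman's rho between G and C content and the deviation of that library from the other 2 was -0.60, given as a description since the genes share the library. Col7a1, Col13a1, Col27a1 and Col18a1 were low there and Col4a4, Col4a5, Col15a1 and Col10a1 high. The part of base composition in these values was not tested. Without that library, 15 collagen genes were higher in Siglec-F high than in naive libraries, 12 of them among the 14 above.

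The makeup of the collagen RNA differed as well as its amount. Of the summed collagen level per length, Col3a1 made up 34.9% to 45.8% in the Siglec-F high libraries, 29.8% to 39.6% in the Siglec-F int libraries, and 25.8% to 33.3% in the naive libraries. Col6a1 made up 13.9% to 18.8% in the Siglec-F high libraries, 17.2% to 20.3% in the Siglec-F int libraries and 7.98% to 9.47% in the naive libraries. Col1a2 ran the other way, at 6.61% to 7.57% in the Siglec-F high libraries, 6.89% to 9.39% in the Siglec-F int libraries and 17.0% to 23.6% in the naive libraries. Col4a1 made up 1.76% to 2.56% in the Siglec-F high libraries, 2.48% to 3.14% in the Siglec-F int libraries and 5.89% to 6.84% in the naive libraries. For Col6a1, Col1a2 and Col4a1 the naive shares did not overlap those of either other group. Such shares can be lower without a lower level. The mean level per kilobase of Col1a2 was 522, 437 and 395 normalized counts in Siglec-F high, Siglec-F int and naive libraries. That of Col4a1 was 170, 151 and 126 in the same order.

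Genes that make, bind and cut collagen were listed from textbook roles, and these lists were described by counts. Of 33 genes of collagen biosynthesis and processing, 31 were tested, with 6 higher and 6 lower in Siglec-F high libraries (median log2 fold change 0.19) and 4 higher and 2 lower in Siglec-F int libraries (median 0.12). Over all genes tested, 31.3% and 22.3% passed in these comparisons and the medians were -0.11 and -0.02, so the share of this list that passed was near that of all genes. Among the higher genes, Pcolce2, an enhancer of the removal of the procollagen tail, had 259.9, 130.1 and 162 normalized counts in the Siglec-F high libraries, 119, 39.6 and 131 in the Siglec-F int libraries, and 28.7, 26.1 and 19.2 in the naive libraries (log2 fold change for Siglec-F high 2.81 ± 0.52, adjusted p = 0.00385). Bmp1, the protease that removes that tail, rose by 1.84 ± 0.42 in Siglec-F high (adjusted p = 0.0103) and 1.95 ± 0.42 in Siglec-F int libraries (adjusted p = 0.00935). The lysyl oxidase gene Lox, whose enzyme starts cross-linking, had a log2 fold change of 1.96 ± 0.48 in Siglec-F high (adjusted p = 0.0134) and 1.28 ± 0.48 in Siglec-F int libraries (adjusted p = 0.0804). Its relative Loxl3 was higher in Siglec-F high (1.34 ± 0.39, adjusted p = 0.0264) and in Siglec-F int libraries (1.50 ± 0.39, adjusted p = 0.0208). The peroxidase gene Pxdn, whose enzyme cross-links type IV collagen, was also higher in Siglec-F high (2.06 ± 0.54, adjusted p = 0.0175) and in Siglec-F int libraries (1.98 ± 0.54, adjusted p = 0.0252). The Siglec-F high calls of Loxl3 and Pxdn were lost without naive library 1 or 2. That of Loxl3 was also lost without naive library 3 or Siglec-F high library 2 or 3, and with only the groups compared. The Siglec-F int calls of Loxl3 and Pxdn were lost without Siglec-F int library 1 or 3 or naive library 1 or 2, that of Loxl3 also without naive library 3, and that of Bmp1 without Siglec-F int library 3.

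Among the lower genes of this list, P4ha2, a catalytic chain of prolyl hydroxylase, had 125, 82.9 and 98.9 normalized counts in the Siglec-F high libraries, 91.3, 61.1 and 79.1 in the Siglec-F int libraries, and 241, 393 and 354 in the naive libraries. Both groups from mice given PyMT cells lay below the naive range and overlapped each other, and it fell by 1.67 ± 0.35 (log2, adjusted p = 0.00697) in Siglec-F high and fell by 2.07 ± 0.35 (adjusted p = 0.00302) in Siglec-F int libraries. P3h3, of the prolyl hydroxylase family, fell by 1.39 ± 0.35 in Siglec-F high (adjusted p = 0.0153) and fell by 1.75 ± 0.35 in Siglec-F int libraries (adjusted p = 0.00685). The Siglec-F high call of P3h3 was lost without Siglec-F high library 3 or naive library 1 or 3. The lysyl hydroxylase gene Plod1 fell by 2.24 ± 0.50 in Siglec-F high libraries (adjusted p = 0.00883), with a log2 fold change of -1.45 ± 0.50 in Siglec-F int libraries (adjusted p = 0.0590). Over other settings the number of called genes of this list ran from 6 to 15 for Siglec-F high and from 2 to 17 for Siglec-F int.

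Of 14 genes of collagen receptors and uptake, 12 were tested, with 6 higher and 1 lower in Siglec-F high libraries (31.3% of all genes tested passed, 14.7% higher and 16.6% lower) and 5 higher and 1 lower in Siglec-F int libraries (22.3%, 12% higher and 10.3% lower). The median log2 fold changes were 1.54 and 1.30, beside -0.11 and -0.02 over all genes tested. Itga10, the collagen-binding integrin chain of cartilage, had 9.87, 27.4 and 44.4 normalized counts in the Siglec-F high libraries, 46.7, 6.74 and 27.5 in the Siglec-F int libraries, and 0 in each naive library. As a share of reads it was at least 25.2-fold higher in Siglec-F high and at least 24.4-fold higher in Siglec-F int libraries, against a floor of 3 reads over the naive group. With no naive read, it reached the minimum mean of 5 only through the groups in which it was high, so its adjusted p of 0.00432 and 0.00590 is given as a description. Its partner chain Itgb1 had log2 fold changes of 1.40 ± 0.27 (adjusted p = 0.00489) and 1.34 ± 0.27 (adjusted p = 0.00706). Mrc1, the mannose receptor of macrophages that also takes up collagen, had log2 fold changes of 2.99 ± 0.55 (adjusted p = 0.00379) and 2.64 ± 0.55 (adjusted p = 0.00780). Beside it, the summed count of 9 monocyte and macrophage markers, Mrc1 among them, was 2807 to 3500 in the Siglec-F high libraries, 3199 to 11239 in the Siglec-F int libraries and 1182 to 2016 in the naive libraries. Adgrg1, an adhesion receptor for type III collagen, went the other way, with 5.48, 34.6 and 21.3 normalized counts in the Siglec-F high libraries, 16.6, 19.8 and 26.2 in the Siglec-F int libraries, and 201, 307 and 297 in the naive libraries. It fell by 3.94 ± 0.62 (log2, adjusted p = 0.00176) and fell by 3.62 ± 0.62 (adjusted p = 0.00311).

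Of 15 genes of collagen-degrading proteases and their inhibitors, 12 were tested, with 4 higher and 0 lower in each comparison with naive. Of all genes tested, 31.3% passed for Siglec-F high (14.7% higher) and 22.3% for Siglec-F int (12% higher). The median log2 fold changes of the list were 1.21 and 1.09, beside -0.11 and -0.02 over all genes tested. Timp3, the matrix-bound metalloproteinase inhibitor, had 10333, 5141 and 6421 normalized counts in the Siglec-F high libraries, 5318, 1913 and 5160.4 in the Siglec-F int libraries, and 521, 795 and 635 in the naive libraries. Its log2 fold change was 3.45 ± 0.42 (adjusted p = 0.000553) in Siglec-F high and 2.55 ± 0.42 (adjusted p = 0.00279) in Siglec-F int libraries. Ctsl, a lysosomal cathepsin that can cut collagen, had 4899, 3103 and 3245 normalized counts in the Siglec-F high libraries, 2485, 2343 and 2588 in the Siglec-F int libraries, and 836, 847 and 866 in the naive libraries (log2 fold change 2.11 ± 0.25, adjusted p = 0.000504, and 1.54 ± 0.25, adjusted p = 0.00275). Mmp2, the gelatinase of fibroblasts, had a log2 fold change of 2.44 ± 0.58 in Siglec-F high (adjusted p = 0.0116) and 2.25 ± 0.58 in Siglec-F int libraries (adjusted p = 0.0203). Timp1, an inhibitor of metalloproteinases, had one of 1.67 ± 0.41 in Siglec-F high (adjusted p = 0.0138) and 1.63 ± 0.41 in Siglec-F int libraries (adjusted p = 0.0187). The Siglec-F int calls of both were lost without Siglec-F int library 1 or 3 or naive library 1, and that of Timp1 also without naive library 3. For Siglec-F int, the call count of this list ran from 2 to 6 over other settings.

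**Figure D5:**
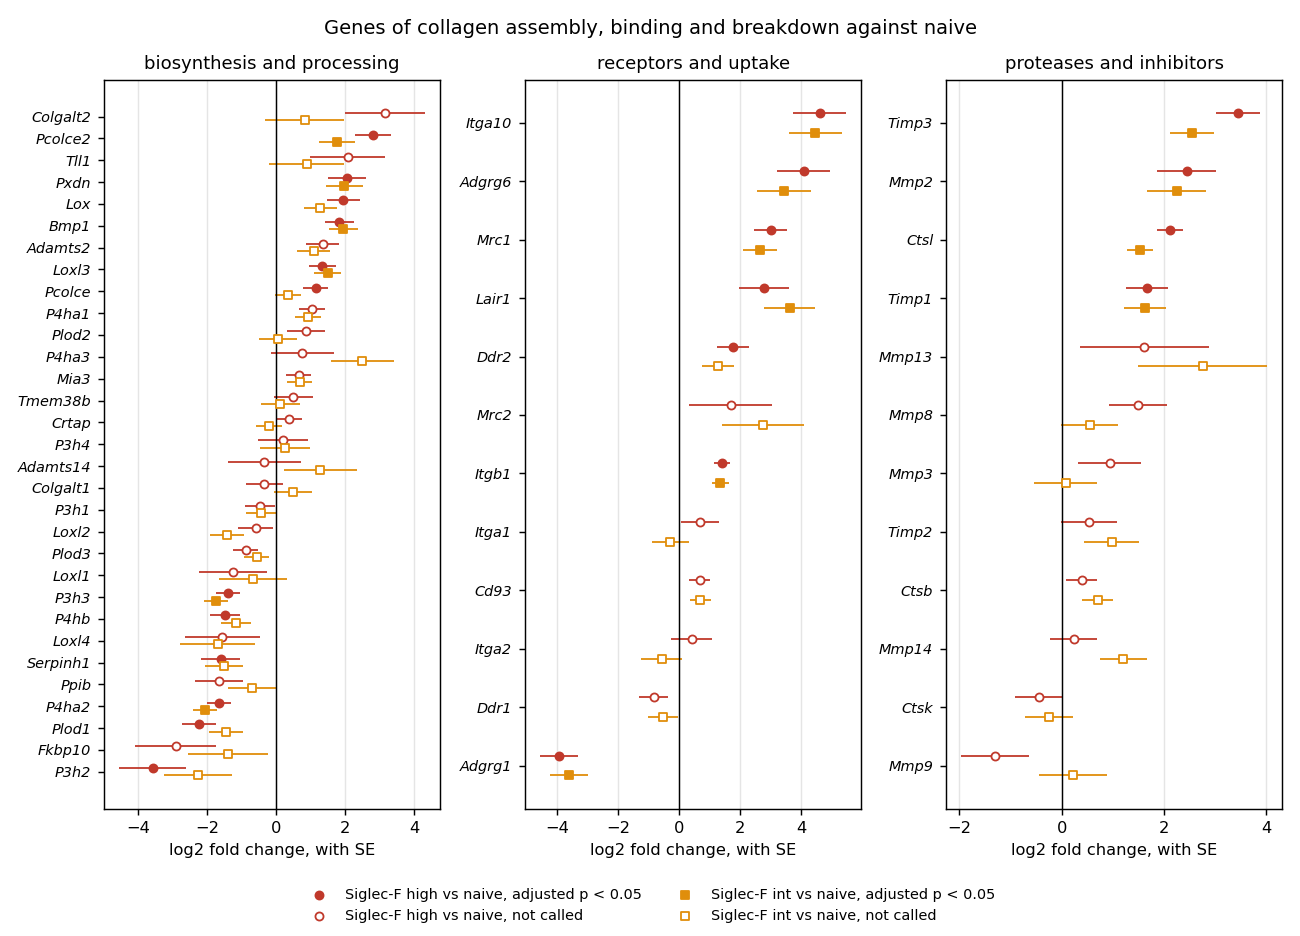
Log2 fold change against naive (horizontal axes, bars are SE) of the tested genes of collagen biosynthesis and processing (left), receptors and uptake (middle), and proteases and inhibitors (right), with Siglec-F high as red circles and Siglec-F int as orange squares, filled where the adjusted p was under 0.05. Filled points of the left panel lie on both sides of 0, those of the middle panel lie above 0 except Adgrg1 at -3.94 and -3.62, and those of the right panel all lie above 0.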

How the data were processed

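RNA of 9 libraries was measured in 3 groups of 3. Per the submitters' processing notes, TopHat2 2.1.0, HTSeq and DESeq2 1.10.0 were used with GRCm38. The deposited table holds a signal, namely gene counts divided by the authors' size factors. When a column was divided by its own smallest increment, 100% of its entries below 2000 reads came out whole to within 0.05 read, and these recovered reads set the depth. Of 54670 entries, 63 with a date or no name, 116 exact duplicates and 130 repeats were left out. No column was without a sample.

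A single limma 3.58.1 fit of all 9 libraries, run in R 4.3.3 on log2(value + 1) with a variance trend, gave the comparisons. P-values were two-sided, adjusted by the Benjamini-Hochberg method over all 13642 genes with a mean of at least 5, and called under 0.05. edgeR 4.0.16 and DESeq2 1.42.0 were run on the recovered reads as alternatives. Every collagen gene is accounted for. Of each other list, up to 3 called genes per direction and comparison with the smallest adjusted p are named. The members and lists were chosen with earlier results of these data known, so they are described by counts and medians. The labels do not say that a replicate number marks a shared batch, so no block was used. Transcript lengths, G and C content and positions came from GENCODE M21, and promoters from RefSeq in GRCm38.p6. Exact permutation tests and 95% Wilson and Clopper-Pearson intervals used scipy 1.17.1, and figures matplotlib 3.10.9. A count of 0 allows up to 3 reads. Alternatives were other pseudocounts, filters and scalings, a fit of only the groups compared, a replicate block and the removal of libraries.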

Additional observations from a re-analysis of the deposited data

How the results depend on the processing

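The number of collagen genes called between Siglec-F high and naive libraries was 14 and ran from 12 to 17 over 20 other settings. Leaving out each library in turn gave 12 to 15 for Siglec-F high and 7 to 14 for Siglec-F int against naive, and 0 to 0 between the Siglec-F high and int libraries, which stayed at 0 in all 20. The lower end for Siglec-F int, 7 and 8, came without Siglec-F int libraries 3 and 1. All calls were higher in these counts except 1 lower call in each comparison without naive library 1, and 1 for Siglec-F int with edgeR and with DESeq2. With the replicate block, 14, 12 and 0 were called. Same-numbered Siglec-F high and int libraries had correlations of their deviations of 0.123, 0.141 and 0.0718. Differently numbered ones of these groups ran from -0.157 to -0.0105. Between naive and the other groups, same-numbered libraries ran from -0.0293 to 0.0616. As not all same-numbered correlations were over 0.1, the numbers were not taken to pair the libraries. Whether same-numbered Siglec-F high and int libraries shared a pool or batch was not tested, and the main fit treated them as independent. Of the values of called genes under other settings, 492 kept the call, 47 lost it and 0 changed direction. Of the values of genes not called, 26 became called.

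Genes that were not called changed direction in 23 values. For Siglec-F high against naive, the log2 fold change of Col13a1 went to 0.0669 with a pseudocount of 5, 0.0409 with equal totals, 0.0341 with TMM factors, 0.69 with edgeR and 0.57 with DESeq2, that of Col15a1 to 0.20 with edgeR and 0.19 with DESeq2, and that of Col11a1 to -0.0147 and -0.0745. With Siglec-F int library 2 and Siglec-F high library 1 left out together, Col13a1 went to 1.24 and Col4a4 to -0.14. When single libraries were left out, the Siglec-F high log2 fold changes ran from -0.94 to 1.24 for Col13a1, from -0.94 to 0.52 for Col15a1, from -0.75 to 1.28 for Col11a1, from -0.13 to 1.60 for Col27a1 and from -0.14 to 1.19 for Col4a4. Those of Siglec-F int ran from -0.48 to 0.73 for Col13a1, from -0.18 to 1.14 for Col23a1 and from -0.0327 to 0.36 for Col1a2. The cause was not tested. Counts of the 3 pathway lists were recomputed after seeing the data and moved by over 1.5 times for biosynthesis genes (2 of 20 settings for Siglec-F high, 8 of 20 for Siglec-F int) and proteases (3 of 20 for Siglec-F int). Depth limits the low genes, since 1 read was worth 0.316 to 2.61 normalized counts.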
